A study of Mus musculus with 15 samples.

Results

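RNA-Seq counts of 9 genes for lipid, starch and peptide digesting enzymes of the pancreas were examined in mouse pancreas libraries of 2 experiments (11 libraries of 15 in all). The 9 genes were listed by name, and all of them were found in each of the 3 deposited count tables, which list 15175, 49585 and 49585 genes. Each transgenic group was compared with its own control. In the MC experiment, 3 libraries of mice expressing M46 (a kinase-dead form of the kinase HPK1) were compared with 3 libraries labelled B control. In the HC experiment, 3 libraries labelled HPK1 TG (genotype label HPK1/B) were compared with 2 wild-type libraries (labelled WT), here called HC control. Each library held RNA pooled from 3 mice of the C57BL/6 strain. The mice had received cerulein, a secretagogue peptide that injures acinar cells. The mice were 2 months old in the MC experiment and 4 months old in the HC experiment. The transgenes were switched on by a tamoxifen-inducible Cre under an acinar elastase promoter, and the mice still had their own Map4k1, the gene of HPK1. MC libraries were prepared with another kit than HC libraries.

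Acinar cells store digestive enzymes in zymogen granules and release them into the duct. Pancreatic lipase (Pnlip) cleaves dietary triglycerides and needs colipase (Clps) to hold on to bile-covered fat droplets. Pnliprp1 and Pnliprp2 are relatives of Pnlip, of which Pnliprp1 has little lipase activity and Pnliprp2 also cleaves galactolipids and phospholipids. Carboxyl ester lipase (Cel) is activated by bile salts and cleaves cholesterol esters and many other esters. Pla2g1b is the secreted phospholipase A2 of pancreatic juice, Amy1 encodes an amylase, and the procarboxypeptidases Cpa1 and Cpb1 remove aromatic or aliphatic and basic residues from the ends of peptides.

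The 9 genes took 13.1 to 19.4% of all gene counts in the MC controls and 10.2 to 14.5% in MC. In the HC experiment it was only 2.32 and 3.06% in the controls and 1.84 to 2.88% in HC. The Wilson 95% interval of the share in MC control 1 was 17.45 to 17.47%, so counting error was small at totals of 29766575 to 37829604 counts per library. The serine protease zymogens (trypsinogens, chymotrypsinogens and proelastases, 13 genes) took 24.4 to 33.3% of counts in the MC experiment and 3.45 to 5.33% in the HC experiment. The marker genes of acinar cells were thus present in all libraries, and lower in the HC experiment, in controls and transgenic mice alike. In whole pancreas, fewer acinar cells and less RNA per acinar cell cannot be told apart.

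**Figure D1:**
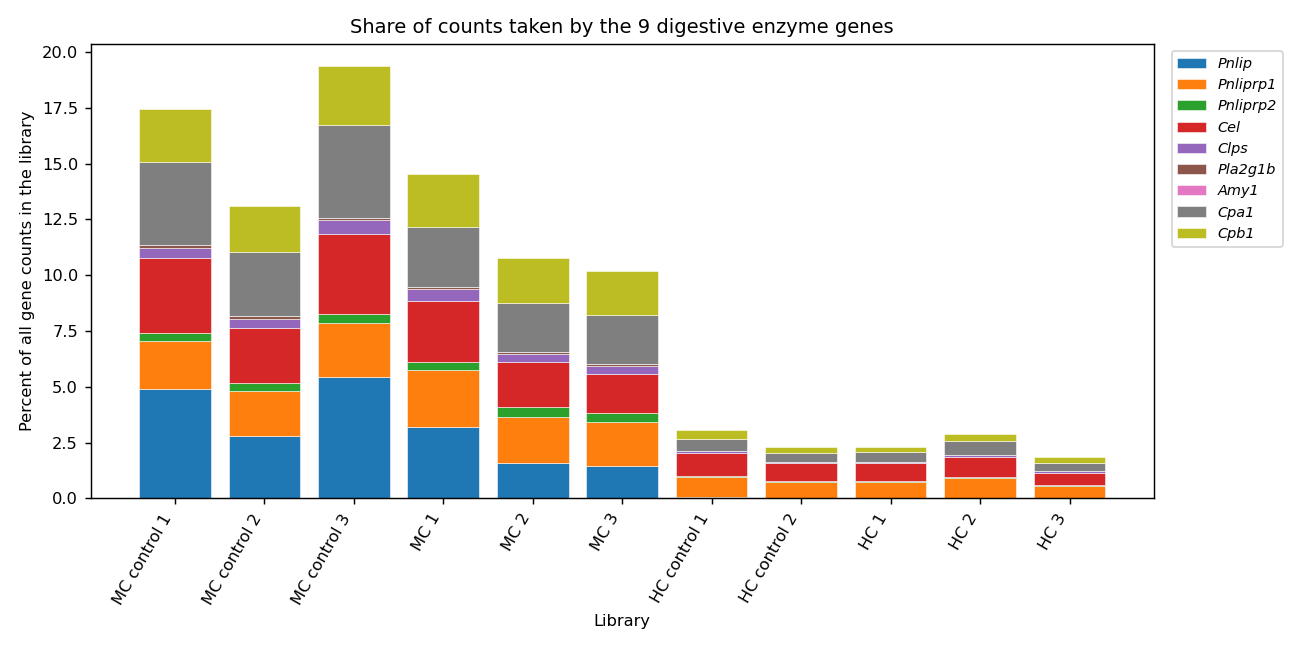
Stacked bars of the percent of all gene counts taken by each of the 9 genes in each of the 11 libraries. The whole bar ranges from 1.84% in HC 3 to 19.4% in MC control 3, and the Pnlip section is hardly visible in the 5 bars of the HC experiment.

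Some libraries went against their labels or stood apart. Map4k1, whose counts either transgene could add to, had 6.79 to 8.32 TMM-scaled counts per 1000000 (CPM) in MC against 2.34 to 4.14 in its controls. In the libraries labelled HC it had 5.05 to 7.93 CPM, below the 11.5 and 15.4 of their controls, so differences of HC are those of the libraries so labelled. HC 3 held 24 counts of the female-specific Xist and 4534 counts of 4 Y-linked genes, whereas the other 4 libraries of that table held 18228 to 36275 counts of Xist and 0 of the Y-linked genes. The MC table does not list Xist, and the sex of its libraries was not examined. TMM scaling, which assumes that most genes are equal between libraries, gave factors of 0.706 to 1.13 for the MC controls, 0.944 to 1.25 for MC and 0.99 to 1.03 in the HC experiment.

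In GRCm38, Cel lies on chromosome 2 at 28555795 to 28563403 and Cpa1 on chromosome 6 at 30639218 to 30645363. Clps lies on chromosome 17 at 28558149 to 28560766 and Pla2g1b on chromosome 5 at 115466262 to 115474722. Cpb1 and Amy1 both lie on chromosome 3, at 20248264 to 20275733 and 113555710 to 113606699. Pnlip, Pnliprp1 and Pnliprp2 are neighbours on the plus strand of chromosome 19, at 58652498 to 58681788, 58728887 to 58744169 and 58759719 to 58777534. RefSeq promoter windows (GRCm38.p6, from 250 bases before to 50 bases after the start) were held for 8 of the 9 genes, the exception being Clps. The letters of an E-box with the core bound by PTF1A (CACCTG) and of the site bound by its partner RBPJL (TTTCCCA), the acinar transcription factors, were searched on both strands. CACCTG was in 3 of 9 windows (Cel, Cpb1 and Pnliprp2; Amy1 has a pair of windows), against 20.2% of 32851 promoters of the same length. TTTCCCA was in 2 of 9 (Cel and Cpa1) against 8.06%, and both were only in that of Cel, against 1.61% of all promoters. The 250 bases before the start are shown for Cel, the window with matches to both motifs, and for Pnlip, Pnliprp1 and Pla2g1b, which had no match and whose levels per zymogen count differed between experiments. The RefSeq start of Pnlip lies inside the span that GENCODE gives the gene. Capitals mark the matches (on the other strand they read CAGGTG and TGGGAAA).
Cel, chr2:28563404-28563653, minus strand: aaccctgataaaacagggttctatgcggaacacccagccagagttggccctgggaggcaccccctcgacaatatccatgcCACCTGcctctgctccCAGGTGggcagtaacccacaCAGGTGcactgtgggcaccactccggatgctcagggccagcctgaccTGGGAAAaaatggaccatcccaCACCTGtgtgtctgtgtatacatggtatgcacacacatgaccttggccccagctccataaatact
Pnlip, chr19:58670115-58670364, plus strand: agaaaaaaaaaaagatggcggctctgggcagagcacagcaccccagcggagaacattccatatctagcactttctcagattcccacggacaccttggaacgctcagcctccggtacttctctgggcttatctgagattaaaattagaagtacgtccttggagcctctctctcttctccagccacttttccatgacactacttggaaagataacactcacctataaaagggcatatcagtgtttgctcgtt
Pnliprp1, chr19:58728637-58728886, plus strand: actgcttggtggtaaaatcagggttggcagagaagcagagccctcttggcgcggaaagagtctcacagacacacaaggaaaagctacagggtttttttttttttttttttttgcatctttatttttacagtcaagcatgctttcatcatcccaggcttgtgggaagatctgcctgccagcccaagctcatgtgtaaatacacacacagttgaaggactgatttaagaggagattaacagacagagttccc
Pla2g1b, chr5:115465892-115466141, plus strand: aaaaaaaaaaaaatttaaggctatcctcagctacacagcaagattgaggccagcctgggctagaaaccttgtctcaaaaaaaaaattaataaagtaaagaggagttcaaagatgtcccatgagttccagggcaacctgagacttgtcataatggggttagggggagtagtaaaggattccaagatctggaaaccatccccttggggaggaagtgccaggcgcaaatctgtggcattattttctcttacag
A match describes letters and not a bound site.

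In the MC experiment, all 9 genes had lower mean levels in MC than in control, but none passed the test. A gene was called when its Benjamini-Hochberg adjusted p in edgeR's quasi-likelihood test was at most 0.05 over all genes tested and its log2 fold change was at least 1 in either direction. By this rule 0% of 13902 genes tested were called in this experiment, although 2038 had an unadjusted p of at most 0.05 and DESeq2 called 453. Without control 2 edgeR called 718 genes and without MC 1 it called 171. The median log2 fold change of the 9 genes was -0.64, against -0.02 over all genes tested. Leaving out 1 library moved the median of the 9 from -0.27 without control 3 to -1.04 without MC 1.

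Pnlip had 55490, 24770 and 76840 CPM in the controls and 33980, 12730 and 11960 CPM in MC. The groups overlapped, since control 2 lay below MC 1. Its log2 fold change of -1.42 (SE 0.65, adjusted p = 0.359, edgeR) was the largest of the 9. Its cofactor Clps had 5282, 3780 and 8382 CPM in the controls against 5535, 2817 and 2806 CPM in MC, a log2 fold change of -0.64 (SE 0.42, adjusted p = 0.464, edgeR). For both, MC 1 was the highest MC library and control 2 the lowest control.

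The relatives of Pnlip differed less between the groups. Pnliprp1 had 24030, 18000 and 34400 CPM in the controls and 27010, 16700 and 16380 CPM in MC (log2 fold change -0.35, SE 0.44, adjusted p = 0.702, edgeR), and MC 1 exceeded 2 of the 3 controls. Pnliprp2 had 4198, 2983 and 6083 CPM in the controls and 3769, 3429 and 3281 CPM in MC (log2 fold change -0.34, SE 0.31, adjusted p = 0.597, edgeR). Scaled by library size alone, which moved the median of all genes to 0.29, the values of Pnliprp1 and Pnliprp2 turned to 0.00 and 0.05, still below that median. Cel, the esterase, had 37750, 21770 and 50730 CPM in the controls and 29110, 16290 and 14850 CPM in MC, a log2 fold change of -0.87 (SE 0.51, adjusted p = 0.427, edgeR).

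The phospholipase Pla2g1b was the only one of the 9 genes whose groups did not overlap. It had 1480, 989 and 1719 CPM in the controls and 957, 683 and 749 CPM in MC. Among all genes tested, 9.89% were lower in MC without overlap. The log2 fold change was -0.81 (SE 0.26), with an adjusted p of 0.25 in edgeR and 0.0311 in DESeq2, and below the fold threshold in both. Without control 2 the adjusted p in edgeR was 0.0476 at a log2 fold change of -1.01, which is past both thresholds. Over all alternatives run it ranged from 0.0311 to 0.68.

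Among the enzymes of starch and peptide digestion, Amy1 had 88.9, 43 and 92.8 CPM in the controls and 109, 32.3 and 25.8 CPM in MC (log2 fold change -0.43, SE 0.56, adjusted p = 0.709, edgeR), with the highest value in MC 1. Cpa1 had 41910, 25390 and 58620 CPM in the controls and 28490, 17640 and 18240 CPM in MC, and only control 2 reached into the range of MC. Its log2 fold change was -0.97 (SE 0.49, adjusted p = 0.389, edgeR). Cpb1 had 26830, 18450 and 37850 CPM in the controls and 25070, 16050 and 16300 CPM in MC, a log2 fold change of -0.53 (SE 0.44, adjusted p = 0.558, edgeR). Adipocyte markers had a median log2 fold change of 3.63 over 8 genes and leukocyte markers of 1.70 over 12, against -0.02 over all genes tested. None of them was called with TMM scaling. Their summed levels, per 1000000 total counts without TMM scaling, were 96.4 to 277 CPM against 29.8 to 42.2 CPM and 194 to 302 CPM against 45 to 191 CPM. None of the listed markers of both cell types was at 0 in any of the 6 libraries, and the part of such cells in the values above was not tested.

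**Figure D2:**
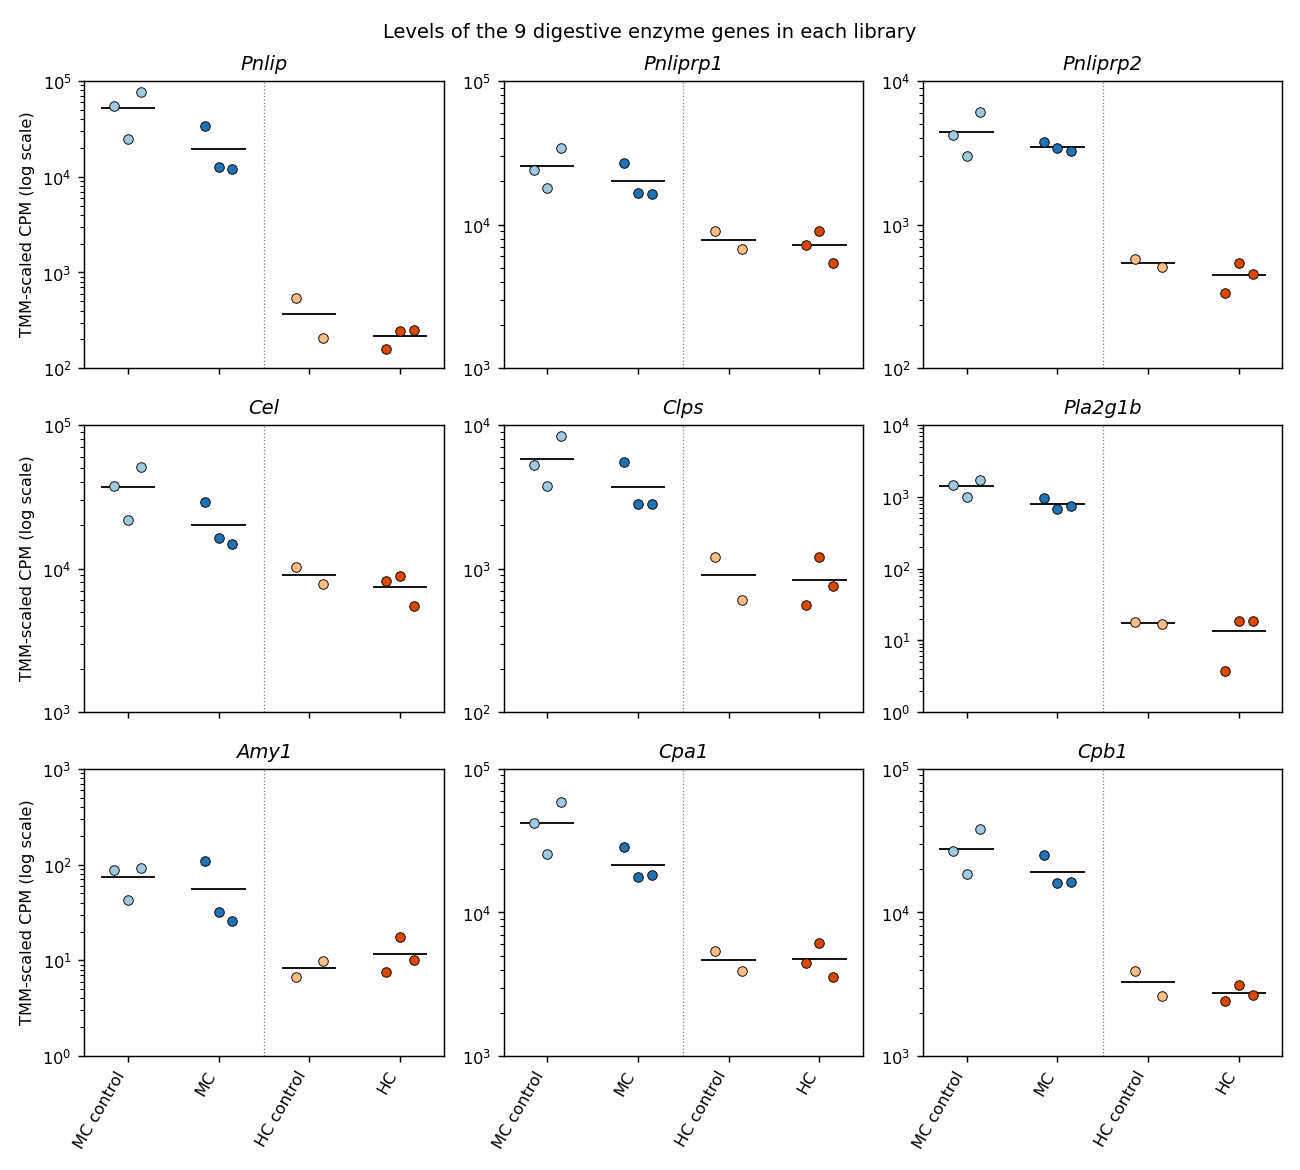
Levels of the 9 genes in TMM-scaled CPM (log axis) in each library, with 1 panel per gene, 1 point per library and a line at the group mean, and a dotted line between the experiments, which were scaled separately. In the MC panels the ranges of the groups overlap for all genes but Pla2g1b, and the HC groups overlap throughout.

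In the HC experiment no member passed the test. By the same rule 0.565% of 18407 genes were called, and none of the 9 was among them. All 9 had overlapping groups, whereas 16.1% of all genes were lower in HC without overlap. Pnlip had 539 and 206 CPM in the controls and 158, 242 and 252 CPM in HC (log2 fold change -0.78, SE 0.40, adjusted p = 0.409, edgeR). Control 1 stood above all others, and without it the log2 fold change was 0.08. Pla2g1b had 18.2 and 16.9 CPM in the controls and 3.69, 18.4 and 18.6 CPM in HC. Here HC 1 alone was low, with 125 counts against 578 to 661 counts in the other 4 libraries.

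Pnliprp1 had 8963 and 6765 CPM in the controls and 7157, 9027 and 5411 CPM in HC. Cel had 10290 and 7808 CPM in the controls and 8164, 8814 and 5474 CPM in HC, and Pnliprp2 had 573 and 511 CPM against 335, 540 and 453 CPM. In all 3 genes HC 2 lay within or above the range of the controls. These lipid enzymes and Clps had log2 fold changes of -0.13 for Pnliprp1 (SE 0.32), -0.29 for Pnliprp2 (SE 0.21), -0.27 for Cel (SE 0.32) and -0.12 for Clps (SE 0.40), and adjusted p of 0.571 to 0.927 in edgeR. Clps had 1204 and 603 CPM in the controls and 555, 1197 and 750 CPM in HC, and 2 of the 3 HC values lay between its controls. Cpa1 had 5427 and 3892 CPM in the controls and 4461, 6147 and 3530 CPM in HC, a log2 fold change of 0.02 (SE 0.32). Cpb1 had 3884 and 2625 CPM in the controls and 2435, 3122 and 2642 CPM in HC (log2 fold change -0.25, SE 0.25). Amy1, an amylase that cleaves starch, had the highest value, 0.50 (SE 0.38, adjusted p = 0.581, edgeR), from 6.77 and 9.75 CPM in the controls and 7.56, 17.4 and 10.1 CPM in HC. Without HC 3, the library with Y-linked counts, the median of the 9 genes was -0.11 instead of -0.25, and without control 1 it was 0.079. Stomach and gut markers in HC had a median log2 fold change of 1.47, against -0.001 over all genes tested. With TMM scaling they were positive for 8 of 8 genes tested, and none was called. Their summed levels (again without TMM scaling) were 8028 to 8112 CPM against 1624 and 3087 CPM. Leukocyte markers had a median of -0.97, negative for 12 of 13 (280 to 400 CPM against 571 and 756 CPM). Of these 1 was called, against 0.565% of all genes. Islet markers had a median of 0.79, positive for 10 of 10 genes (3550 to 5668 CPM against 2965 and 3331 CPM). Ductal markers had a median of 0.28, positive for 8 of 10 (6142 to 7683 CPM against 5237 and 5774 CPM). Of all these markers Apoa4 was at 0 in all 5 libraries and Ly6g and Sis in 4 each, and the part of such tissue in the members' values was not tested.

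**Figure D3:**
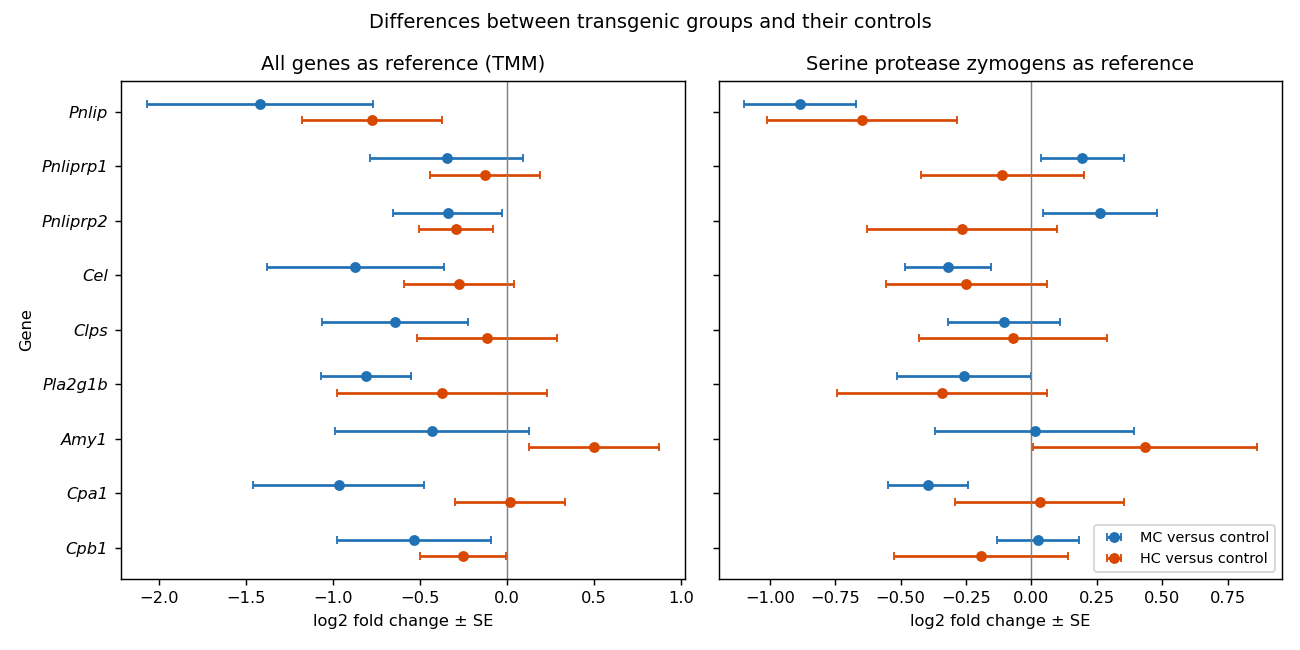
Log2 fold change with its standard error from edgeR for each gene in both comparisons, on the left with TMM scaling and on the right per serine protease zymogen count (the horizontal axes differ). On the left all MC values are negative, from -0.34 for Pnliprp2 to -1.42 for Pnlip, and on the right Pnlip has the lowest value in both comparisons, -0.88 and -0.65.

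To ask whether the 9 genes changed relative to other acinar zymogens, the total count of each library was replaced by its summed counts of the 13 serine protease zymogens. On this scale the median of the 9 was -0.11 in MC and -0.19 in HC, while those over all genes were 0.47 and 0.04. Leaving out 1 library moved the median of the 9 in MC from -0.0077 to -0.25. Called on this scale were 1.96% of genes in MC and 1.97% in HC, and none of the members. Of the markers of other cells described above, 7 of 8 adipocyte and 5 of 12 leukocyte genes were called higher in MC. In HC, 5 of 8 stomach and gut genes and 1 of 10 ductal genes were called higher, and no islet or leukocyte gene was called. In MC, Pnlip was the only member whose adjusted p passed, with a log2 fold change of -0.88 (SE 0.21, adjusted p = 0.0248, edgeR) that did not reach the fold threshold. The adjusted p alone was passed by 1.96% of genes (273 of 13902). DESeq2 gave the same log2 fold change with an SE of 0.38 and an adjusted p of 0.285, and without MC 2 the adjusted p in edgeR was 0.0507. Over all alternatives run the adjusted p ranged from 2e-08 to 0.285. Since edgeR takes the spread partly from all genes, its p does not measure the spread of Pnlip alone.

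Expressed per 1000000 zymogen counts, Pnlip had 159800, 104100 and 162600 counts in the MC controls and 110500, 65060 and 55440 in MC, and only MC 1 and control 2 overlapped. Cpa1 had 120700, 106700 and 124100 in the controls and 92610, 90150 and 84530 in MC, without overlap (log2 fold change -0.40, SE 0.15, adjusted p = 0.279, edgeR). Pla2g1b was also lower without overlap, 3639 to 4262 in the controls against 3111 to 3492 in MC (log2 fold change -0.26, SE 0.26, adjusted p = 0.544, edgeR). Lower without overlap were 0.201% of all genes. On this scale the median of all genes was 0.47, so that share is no measure for acinar genes. Pnliprp1 was higher without overlap, 69180 to 75700 in the controls and 75910 to 87780 in MC, as were 10.3% of all genes (log2 fold change 0.19, SE 0.16, adjusted p = 0.522, edgeR). The remaining 5 overlapped, and Cpb1 was nearly equal at 77240 to 80120 and 75520 to 82030.

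In HC, Pnliprp1 (155300 to 177700 against 180200 and 180300) and Cel (157100 to 202700 against 207000 and 207900) were lower without overlap, against 7.01% of all genes. Their log2 fold changes were -0.11 and -0.25 with SE of 0.31, and neither passed the test. In this fit the SE of all members lay close together (0.31 to 0.43), so the test does not measure the spread of each gene between its own libraries.

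The ratio of Pnlip to its neighbour Pnliprp1 was examined after these values had been seen and is given without a test. It was 2.31, 1.38 and 2.23 counts of Pnlip per count of Pnliprp1 in the MC controls and 1.26, 0.762 and 0.73 in MC. Every MC library had a lower ratio than every control. In the HC experiment the ratio was far lower in both groups, 0.0602 and 0.0304 in the controls and 0.0221 to 0.0465 in HC, and the groups overlapped.

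The composition of the 9 genes differed between the HC and MC experiments, controls included. Pnlip made up 21.3 to 28.2% of the counts of the 9 genes in the MC controls, but 0.916 and 1.75% in the HC controls. Among all genes by count it took places 2 to 4 in the MC controls, and places 164 and 651 in the HC controls. Taken per 1000000 zymogen counts, the mean of Pnlip in the MC controls was 17.4 times that in the HC controls. Pla2g1b was next, with 9.85 times. By contrast Pnliprp1 was at 0.403 times and Cel at 0.494 times the HC controls, and Cpa1 at 1.1 times. The experiments came from separate tables, ages and kits, and these differences were not tested and cannot be told apart from them.

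**Figure D4:**
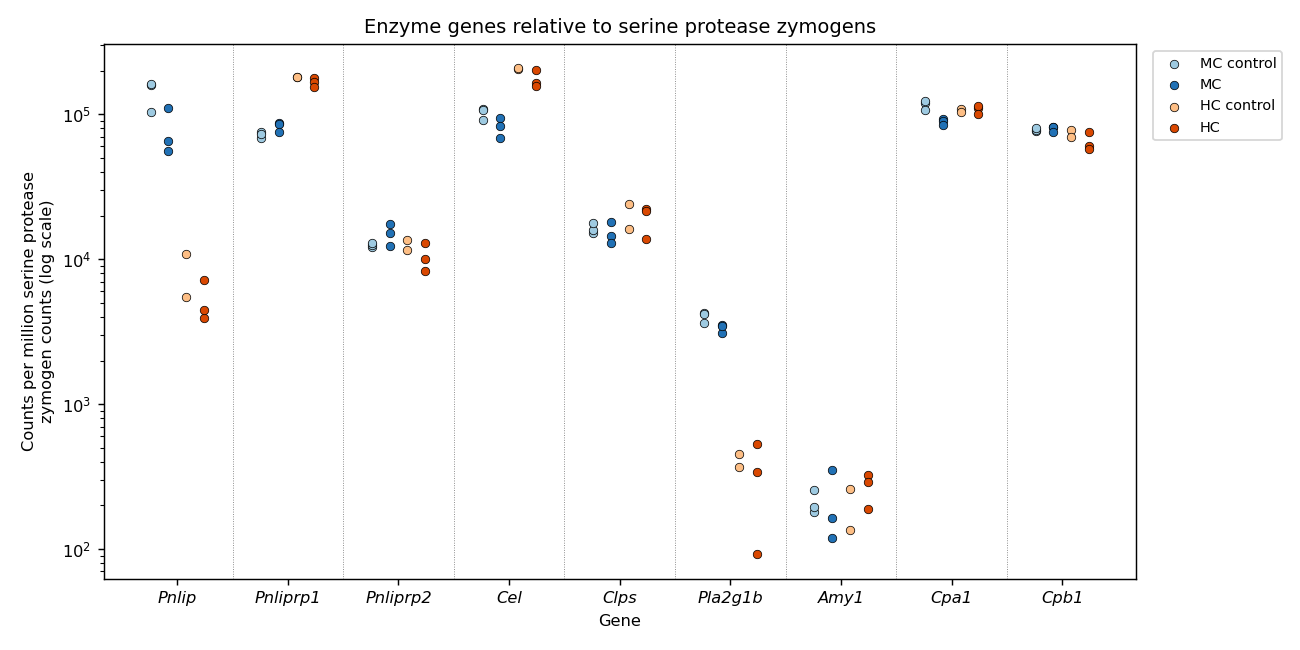
Counts of each gene per 1000000 counts of serine protease zymogens (log axis), with 1 point per library and colours for the 4 groups. Pnlip and Pla2g1b of both HC groups lie below both MC groups without overlap, whereas their Pnliprp1 and Cel values lie above all those of the MC experiment.

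Compared per length, in counts per kilobase of exon per 1000000 total counts, the order of the genes differed accordingly. In the MC controls it was Cpa1 (20410 ± 3698, SD, n = 3), Pnlip (19940 ± 6352), Cel (14860 ± 2812), Pnliprp1 (9879 ± 928), Clps (8107 ± 1403), Cpb1 (7237 ± 897), Pnliprp2 (2412 ± 297), Pla2g1b (1702 ± 138) and Amy1 (18.6 ± 4.39). The ranges of neighbours in this order overlapped down to Cel and from Pnliprp1 to Cpb1, and were separate below. In MC, Pnlip came after Cpa1, Cel and Pnliprp1 at 9465 ± 4468 (SD, n = 3), with overlapping ranges. In the HC controls Cel (4338 ± 718, SD, n = 2) and Pnliprp1 (3569 ± 604) led, and Pnlip (170 ± 104) came after Pnliprp2.

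Amy1 had 1045 to 3219 counts in the MC table and 236 to 548 in the HC table. Of the pancreatic amylase genes on the same chromosome, Amy2a2, Amy2a3 and Amy2a4 had 0 counts in all 5 libraries of the HC table. Amy2a5 had 33 to 123 counts in the HC table and 405 to 1466 in the MC table, and Amy2b 240 to 430 in the HC table. The MC table does not list Amy2a2, Amy2a3, Amy2a4 or Amy2b. By counting error alone, a count of 0 allows up to 3 counts, 0.0793 to 0.0944 per 1000000 total counts. These genes are near-identical copies, and how their shared reads were counted was not tested. That limit is therefore no upper bound on their expression, and the values of Amy1 are uncertain as a measure of amylase.

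The difference between the 2 comparisons, here called the contrast of M46 and HPK1, was tested in 1 fit of all 15 libraries. Of these, 4 are no part of the difference itself. They entered the filter, the scaling and the estimate of the spread, so the tests rest partly on libraries not described here. The fit covered the genes that all tables list, and each comparison was taken within its own table. It is not a contrast of the transgenes alone. MC was set against B control, but HC, of genotype label HPK1/B, against WT. Map4k1 was also lower in HC than in its controls, and in that table only HC 3 had Y-linked counts. For MC against its control minus HC against its control, 0.952% of 14909 genes were called and no member. The log2 differences of the members ran from -1.002 for Cpa1 (SE 0.84, adjusted p = 0.627, edgeR) to -0.06 for Pnliprp2 (SE 0.68, adjusted p = 0.976, edgeR).

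Other genes of the same enzyme classes, which serve lipoproteins, stored fat, lysosomes or peptide hormones, were described from lists for comparison. Of 11 other lipases tested in MC, 7 had positive and 4 negative log2 fold changes with a median of 0.28 and none was called, with values from 2.52 for the endothelial lipase Lipg (adjusted p = 0.131, edgeR) to -0.35 for the hepatic lipase Lipc (adjusted p = 0.61, edgeR). Of 12 tested in HC, Liph, a phosphatidic acid-selective phospholipase, rose (37.3 ± 1.35 CPM in the controls, n = 2, and 86 ± 12.5 in HC, n = 3, log2 fold change 1.21, SE 0.14, adjusted p = 0.0423, edgeR). Other phospholipases A2 had medians of 0.58 over 7 genes in MC and 0.06 over 11 in HC, and other metallocarboxypeptidases 0.30 and 0.34 over 7 and 8 genes, with none called. The log2 fold changes of the phospholipases A2 in MC ran from 1.58 for Pla2g2d to -0.59 for Pla2g6 and the metallocarboxypeptidases from 1.45 for Cpa3 to -0.39 for Cpe, and in HC from 1.40 for Pla2g10 to -0.86 for Pla2g2e and from 1.77 for Cpb2 to -0.47 for Cpz.

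With TMM scaling, other genes of the acinar cell were called in neither comparison. In HC the median log2 fold change was 0.30 over 16 genes of zymogen secretion and 0.03 over 8 acinar transcription factors. The smallest adjusted p among the transcription factors in HC was 0.0499 (edgeR), with a log2 fold change below the threshold. In MC the median log2 fold change was -0.14 over 16 genes of zymogen secretion and -0.10 over 8 acinar transcription factors, against -0.55 for the 13 serine protease zymogens and -0.52 for 12 other acinar secreted products. Bhlha15, which encodes MIST1, had the lowest value of the transcription factors (-1.06, adjusted p = 0.362, edgeR) and Rbpjl the highest (0.14). The log2 fold changes of the secretion genes ran from 0.11 for Chrm1 to -1.51 for Tmed11, the other secreted products from -0.17 for Serpini2 to -0.70 for Amy2a5, and the zymogens from 2.96 for the trypsinogen Prss1 (SE 0.73, adjusted p = 0.155, edgeR) to -0.97 for the proelastase Cela2a.

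In HC the median log2 fold change of the zymogens was 0.10, and they ran from 5.90 for the chymotrypsinogen Ctrc (SE 1.84, adjusted p = 0.21, edgeR) to -0.70 for Prss1. Relative to the summed zymogens, of which they are part, Prss1 (log2 fold change 3.37, SE 0.56, adjusted p = 0.00125, edgeR) and Prss3 (1.85, SE 0.34, adjusted p = 0.00288, edgeR), both trypsinogens and paralogs, rose in MC. Ctrc was called higher in HC (5.96, SE 0.50, adjusted p = 1.62e-28, edgeR), although its groups overlapped. In that fit the SE of the members lay close together, from 0.31 for Cel to 0.43 for Amy1. With TMM scaling the SE of Ctrc was 1.84, so this p does not measure its own spread between libraries. Prss3 is named because it was called, after its values were seen.

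Over all 15 libraries the 9 genes were correlated, but within the HC experiment they did not all move together. There, HC control 1 had the highest Pnlip (539 CPM) and the lowest Amy1 (6.77 CPM). With log2 CPM taken as deviation from the mean of the same table, the correlation of each gene with the mean of the other 8 was 0.887 for Amy1 and 0.892 for Pla2g1b, and 0.944 to 0.985 for the rest, the highest being that of Cpb1 (15 libraries). Among 11787 other genes, those most like the mean of the 9 were 2210010C04Rik (Pearson r = 0.99), Asns (0.989), Slc25a23 (0.989), Cela3b (0.988) and Cela2a (0.986). The points share tables and the scaling of each library, in which the enzymes are a large share of counts, and 4 of the 15 libraries are those not otherwise described.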

How the data were processed

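RNA-Seq libraries of total RNA from pancreas, each pooled from 3 mice, were sequenced. The authors deposited raw counts per gene, made per the submitters' processing notes with bcl2fastq 2.17.14, STAR 2.6.1a, HTSeq 0.6.1 and DESeq2 on mm10. Their table of fold changes and p-values was not used. The labels do not say that libraries came from separate animals beyond the pools, so p-values measure the spread between libraries, which edgeR estimates partly from all genes. The members and lists were chosen with earlier results of these data known. Counts were tested with edgeR 4.0.16 (quasi-likelihood, TMM, filterByExpr, R 4.3.3), in each table separately, with Benjamini-Hochberg adjustment over all genes tested. A second fit per table took the summed zymogen counts as library size, and the difference between the 2 comparisons used 1 fit of 15 libraries. The other 4 libraries, of the remaining table, entered only that fit and the measure of likeness, and their comparison is not reported here. Alternatives were DESeq2 1.42.0, library size alone, library size without acinar products, no filter, a replicate block, other reference products, leaving out each library, and, chosen after seeing the data, a newer edgeR fit and DESeq2 for the fits per zymogen count. The edgeR scripts were tested on simulated data. Levels per kilobase used the exon union of GENCODE. All 9 members are described, with the highest and lowest members of lists whose values the text gives, the 5 genes most like the members among those with at least 10 counts in every library (prior count 2), and paralogs. Totals were 29766575 to 37829604 counts in the 11 libraries described, and intervals cover counting error only.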

Additional observations from a re-analysis of the deposited data

How the results depend on the processing

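No member was called in HC under any alternative, and the medians of the 9 genes in the MC comparison stayed negative under each alternative run, from -1.04 to -0.27 on leaving out 1 library. In HC they ranged from -0.43 to 0.079 on leaving out 1 library and were positive without control 1. With library size alone the log2 fold changes of Pnliprp1 and Pnliprp2 in MC were 0.0029 and 0.050, that of Cpa1 in HC -0.0084 (-0.0092 without acinar products in the library size). In the contrast of M46 and HPK1 Pnliprp1 was then at 0.18, Pnliprp2 at 0.39 and Cpb1 at 0.13. With other secreted products added to the zymogens as reference, Amy1 and Cpb1 in MC were at -0.029 and -0.0070 and Cpa1 in HC at -0.042. The cause was not tested.

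The number of genes called was 453 with DESeq2 and 1 with library size alone in MC (main 0), and 467 with DESeq2, 50 with library size without acinar products and 395 without a filter in HC (main 104). Per zymogen count it was 224 with DESeq2 in HC (main 362). For the contrast of M46 and HPK1 (main 142) it was 618 with DESeq2 and 1 with library size alone.

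Same-numbered libraries of the groups did not deviate together in every pair (r = 0.067, 0.296 and -0.297 in MC, 0.189 and 0.17 in HC). Deviations within so small a group must sum to 0, so these r values cannot show whether the libraries were paired. With the replicate block 0 genes were called in MC and 339 in HC. Pnliprp1 in HC was then at 0.046.

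Leaving out 1 library gave 0 to 718 genes in MC (the most without control 2) and 0 to 379 in HC (the most without HC 1). Per zymogen count it gave 181 to 3803 genes in MC, the most again without control 2, and 191 to 418 in HC. It gave 0 to 493 genes for the contrast of M46 and HPK1. In HC the members that changed sign were Pnlip (-1.31 to 0.079), Pnliprp1 (-0.32 to 0.089), Clps (-0.53 to 0.47), Pla2g1b (-0.69 to 0.075), Cpa1 (-0.22 to 0.28) and Cpb1 (-0.51 to 0.057). Per zymogen count they were Clps (-0.34 to 0.26), Pla2g1b (-0.91 to 0.099) and Cpa1 (-0.0056 to 0.080) in HC and Amy1 (-0.57 to 0.30) in MC. For the contrast of M46 and HPK1 they were Pnliprp1 (-0.51 to 0.055), Pnliprp2 (-0.29 to 0.25) and Cpb1 (-0.60 to 0.0073). A group left with 1 library is assumed to vary like the other groups.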
